A study of Mus musculus with 5 samples.

Results

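Chemokines and their receptors were followed across 5 RNA-seq libraries labelled as visceral adipose tissue of male C57BL/6 mice. The genes were chosen by name only: the CC ligands (Ccl), CXC ligands (Cxcl), the single CX3C ligand, Xcl1, the signalling receptors (Ccr, Cxcr, Cx3cr1, Xcr1) and the atypical receptors Ackr1 to Ackr4. The rule found 60 genes, 38 ligands, 18 signalling receptors and 4 atypical receptors, among the 78334 genes of the count table. Control 1 came from an animal on standard chow given vehicle. Diabetes 1 and diabetes 2 came from animals given streptozotocin, a toxin of insulin-producing cells, once at 70 mg/kg and 2 days of age, fed from 3 weeks of age for 8 weeks with a diet holding 60% of its energy as fat, and given vehicle. The libraries called curcumin 1 and curcumin 2 came from animals that had the same streptozotocin and diet and were given curcumin, a polyphenol of turmeric, by gavage at 50 mg/kg daily for 28 days from 11 weeks of age. The control animals thus differ from the others in both streptozotocin and diet. Whether the 2 libraries of a group are separate mice is not in the labels, so each p below measures only the spread between libraries, which may be technical, and the control has no replicate.

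Chemokines are small secreted proteins that direct the movement of leukocytes along gradients, and they are named by the spacing of their first cysteines (CC, CXC, CX3C and XC). They act on receptors coupled to inhibitory G proteins, while the atypical receptors bind and remove chemokines without that coupling. In obese fat, monocyte attractants such as Ccl2 and their receptor Ccr2 are known for the recruitment of macrophages. Other members, such as Cxcl12 and Ccl21, are made constantly by stromal cells and place lymphocytes and progenitors.

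The libraries were unlike in tissue within each group, and the chemokine values below should be read beside this. Total counts ran from 25378046 to 42422890. Summed over 8 adipocyte genes (Adipoq, Lep, Plin1 and others), diabetes 2 held 23824.5 CPM (counts scaled to the library total) and curcumin 1 held 2174 CPM, while the other libraries held 47.8 to 222 CPM. Markers of the epididymal epithelium (12 genes), the duct beside the gonadal fat, stood at 70871 to 113874 CPM in control 1, diabetes 1 and curcumin 2. They stood at 6013 CPM in curcumin 1 and at 0.355 CPM in diabetes 2, where 9 of the 12 were at 0. Crisp1 alone made 5965 CPM of the sum in curcumin 1, against 334 to 2610 CPM in control 1, diabetes 1 and curcumin 2. Each of the other markers was at most 19.6 CPM in curcumin 1. Smooth muscle and pericyte markers (6 genes) were at 35947 CPM in curcumin 1 and 394 to 1120 CPM elsewhere. Ptprc (CD45), carried by all nucleated blood cells, was at 114 CPM in diabetes 2, 18.1 CPM in curcumin 1 and 4.11 to 6.52 CPM in the others. In such bulk libraries, fewer cells of a type and less RNA per cell cannot be told apart.

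Of the 60 genes, 58 had at least 1 count, 34 had a mean of at least 1 CPM over the 5 libraries, and 50 passed the low-count filter of the test. Ccl26 and Cxcl5 had no count in any library. Detection differed between libraries: 54 of the genes had counts in curcumin 1, 53 in diabetes 2, 49 in curcumin 2, 44 in control 1 and 31 in diabetes 1. Thinned to the depth of the shallowest library, the expected numbers ran from 31 to 53.9, in the same order. Over all genes of the count table, 59.2% had counts in curcumin 1, 39.9% in diabetes 2, 45.9% in curcumin 2, 38.3% in control 1 and 31.8% in diabetes 1. Diabetes 1 was thus lowest over all genes too. In diabetes 1 a gene was seldom seen at few counts, as 29 of its 31 detected genes had at least 10. A count of 0 allows up to 3 counts, for counting error only. That is 0.118 CPM in the diabetic libraries, 0.111 CPM in control 1, 0.108 CPM in curcumin 1 and 0.0707 CPM in curcumin 2. As low counts were so rare in diabetes 1, a 0 there may stand for more than this floor.

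Diabetes 2 held the most chemokine RNA. The 38 ligands summed to 1061 CPM there, against 444 CPM in curcumin 1, 221 CPM in curcumin 2, 217 CPM in control 1 and 157 CPM in diabetes 1. The 18 signalling receptors summed to 146 CPM in diabetes 2, 46.4 CPM in curcumin 1, 36.8 CPM in curcumin 2, 27.5 CPM in control 1 and 21.0 CPM in diabetes 1. The 2 diabetic libraries thus formed both ends of the range, and the other 3 lay between them. Among the 34 genes with a mean of at least 1 CPM, 21 were highest in diabetes 2 and 15 were lowest in diabetes 1. Over all 18453 genes with such a mean, 27.6% were highest in diabetes 2 and 22.4% were lowest in diabetes 1 alone.

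**Figure D1:**
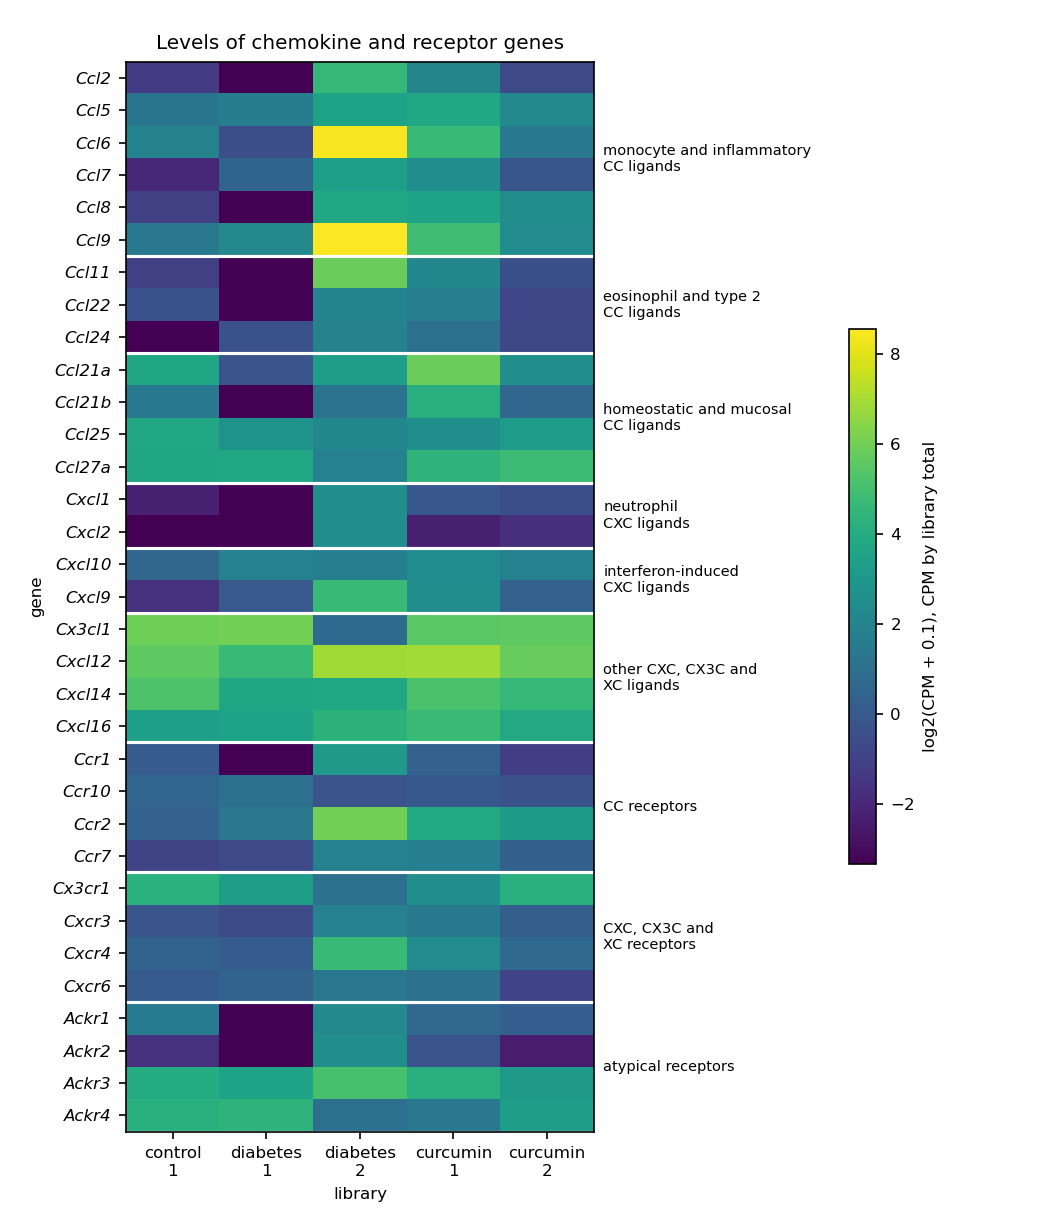
Levels of the genes described in the text that have a mean of at least 1 CPM (rows, grouped by role) in the 5 libraries (columns), as log2(CPM + 0.1) by colour. Ccl6 and Ccl9 in diabetes 2 are the brightest cells at 343 and 373 CPM. Cx3cl1 is lowest in diabetes 2, with 1.69 CPM there and 45.0 to 66.9 CPM elsewhere.

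**Figure D2:**
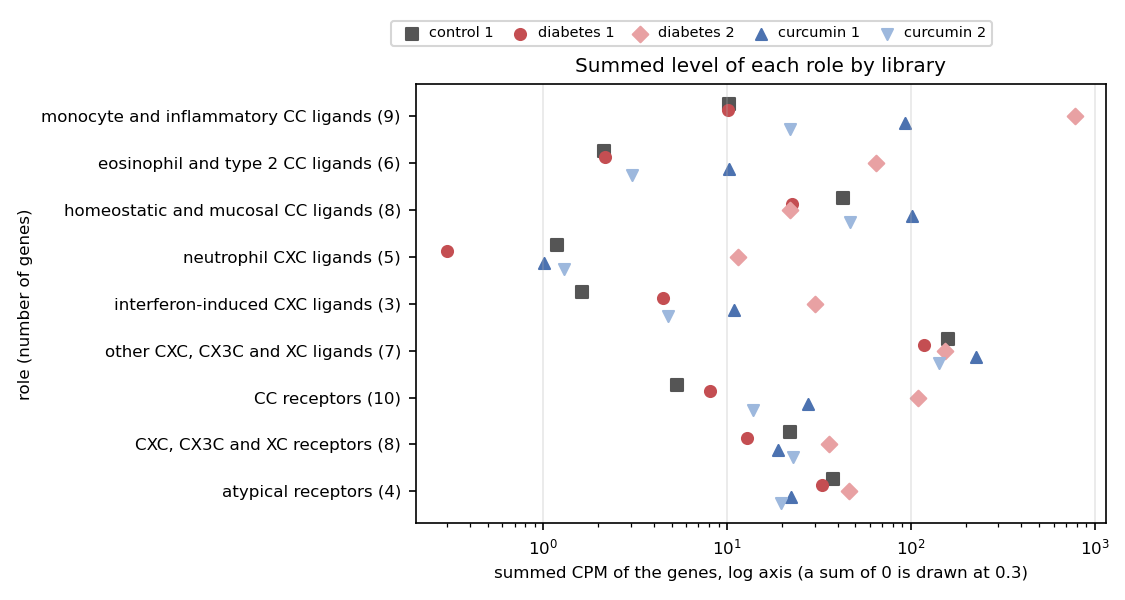
Summed CPM (log axis) of each role in each library, with the number of genes in brackets and a sum of 0 drawn at 0.3. Monocyte and inflammatory CC ligands run from 10.1 CPM in diabetes 1 to 779 CPM in diabetes 2, while homeostatic and mucosal CC ligands are highest in curcumin 1 at 102 CPM.

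The monocyte and inflammatory CC ligands had the widest range in summed CPM, from 10.1 to 779. Ccl9 (ENSMUSG00000019122) and Ccl6 (ENSMUSG00000018927), 2 rodent ligands of Ccr1 made by myeloid cells, led the family. Ccl9 was at 2.59 CPM (70 counts) in control 1, 4.75 CPM in diabetes 1, 373 CPM in diabetes 2, 29.9 CPM in curcumin 1 and 5.26 CPM in curcumin 2. Ccl6 was at 3.92 CPM in control 1, 0.629 CPM (16 counts) in diabetes 1, 343 CPM in diabetes 2, 25.3 CPM in curcumin 1 and 2.66 CPM in curcumin 2. For both genes diabetes 2 lay over 12 times above the next library, and the diabetic pair enclosed or nearly enclosed the rest: Ccl6 differed 546-fold and Ccl9 78.5-fold between diabetes 2 and diabetes 1. Per kilobase of its longest GENCODE transcript, Ccl6 led all 60 genes in diabetes 2 at 238 CPM per kilobase, followed by Ccl9 at 124.

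The sequence upstream of Ccl9 is printed because the gene reached the highest CPM of the family. It holds the AP-1 type motif TGANTCA, in capitals, from base -53 to -47 counted from the annotated start.
Ccl9, upstream of its start (GRCm38.p6, chr11:83578637-83578886, minus strand): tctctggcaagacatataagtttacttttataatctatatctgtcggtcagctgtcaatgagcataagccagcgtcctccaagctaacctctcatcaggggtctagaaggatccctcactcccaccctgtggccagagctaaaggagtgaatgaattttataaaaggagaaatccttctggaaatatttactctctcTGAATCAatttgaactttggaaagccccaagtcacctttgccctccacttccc
On either strand, 6.75% of the 32851 RefSeq promoter windows of 250 bases hold this motif, as do those of 6 of the 45 chemokine and receptor genes with a RefSeq window. Such a match describes letters, not a binding site.

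Ccl2 (ENSMUSG00000035385), the main monocyte attractant, had 9 counts (0.333 CPM) in control 1, 0 in diabetes 1, 23.5 CPM in diabetes 2, 4.06 CPM in curcumin 1 and 22 counts (0.519 CPM) in curcumin 2. Taking 3 counts as the floor, diabetes 2 was at least 199.6-fold above diabetes 1, a limit for counting error only. Ccl7 (ENSMUSG00000035373), which also acts on Ccr2, had 4 counts (0.148 CPM) in control 1, 33 counts (1.30 CPM) in diabetes 1, 10.4 CPM in diabetes 2, 5.54 CPM in curcumin 1 and 34 counts (0.801 CPM) in curcumin 2. Both genes had their highest value in diabetes 2 and the next in curcumin 1. Ccl8 (ENSMUSG00000009185), a monocyte and lymphocyte attractant, was at 0.370 CPM (10 counts) in control 1, 0 in diabetes 1, 13.8 CPM in diabetes 2, 11.6 CPM in curcumin 1 and 5.68 CPM in curcumin 2. Both curcumin-treated libraries thus lay above the control and inside the diabetic range.

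Ccl5 (ENSMUSG00000035042), the T cell and monocyte attractant also called RANTES, was at 2.37 CPM (64 counts) in control 1, 3.06 CPM (78 counts) in diabetes 1, 11.5 CPM in diabetes 2, 13.3 CPM in curcumin 1 and 4.71 CPM in curcumin 2. Its values in diabetes 2 and curcumin 1 were close, and with TMM scaling their order turned (12.7 and 12.6 CPM). Ccl12 (ENSMUSG00000035352), a mouse paralogue of Ccl2, stayed low, with 15 counts (0.555 CPM) in control 1, 9 (0.354 CPM) in diabetes 1, 8 (0.315 CPM) in diabetes 2, 48 (1.73 CPM) in curcumin 1 and 60 (1.41 CPM) in curcumin 2. Its diabetic values were below the control and its curcumin-treated values above, and the groups did not overlap. Ccl3 and Ccl4, macrophage inflammatory proteins, held 35 and 31 counts in diabetes 2, 12 and 32 in curcumin 1, 18 and 29 in curcumin 2, and 0 or 1 in the other libraries.

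Of the eosinophil and type 2 ligands, Ccl11, Ccl22 and Ccl24 were highest in diabetes 2 and next in curcumin 1. Ccl11 (ENSMUSG00000020676), or eotaxin, was at 0.370 CPM (10 counts) in control 1, 0 in diabetes 1, 56.2 CPM in diabetes 2, 4.46 CPM in curcumin 1 and 0.636 CPM (27 counts) in curcumin 2. That is at least 477-fold between the diabetic libraries, again a limit for counting error only. Its receptor Ccr3 had 34 counts (1.34 CPM) in diabetes 2 and 0 in every other library. Ccl24 (ENSMUSG00000004814), a second eotaxin, had 0 counts in control 1, 18 (0.707 CPM) in diabetes 1, 97 (3.82 CPM) in diabetes 2, 55 (1.98 CPM) in curcumin 1 and 21 (0.495 CPM) in curcumin 2. All 4 libraries from streptozotocin-treated animals held it, and the control did not. Ccl22, a ligand of Ccr4, was at 19 counts (0.703 CPM) in control 1, 0 in diabetes 1, 3.98 CPM in diabetes 2, 94 counts (3.38 CPM) in curcumin 1 and 20 counts (0.471 CPM) in curcumin 2. Ccl17, on the same receptor, ran from 0.288 CPM in curcumin 1 to 1.45 CPM in diabetes 1, and Ccl1 had at most 11 counts.

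The homeostatic ligands followed another order. Ccl21a (ENSMUSG00000094686), which guides Ccr7-bearing cells along lymphatics, was at 12.8 CPM in control 1, 0.786 CPM (20 counts) in diabetes 1, 10.05 CPM in diabetes 2, 56.4 CPM in curcumin 1 and 5.85 CPM in curcumin 2. Ccl21b followed it, at 73 counts (2.70 CPM) in control 1, 0 in diabetes 1, 56 (2.21 CPM) in diabetes 2, 17.2 CPM in curcumin 1 and 59 (1.39 CPM) in curcumin 2. Their transcripts match at 400 of 402 positions, so the counting may have split or exchanged reads between them. Curcumin-treated 1 also held the most B and plasma cell markers (52.7 CPM summed over 6 genes, against 0.943 to 10.2 CPM elsewhere), and the most counts of Cr2, a marker of B cells and follicular stroma (83, against 1 to 12 elsewhere). Of the 5 genes found from the list for lymph node stroma and high endothelium, the high endothelial genes Glycam1, Madcam1 and Chst4 had at most 8 counts in any library, and Enpp2 had 3641 to 29878, fewest in diabetes 2. Lymphatic endothelium markers (6 genes) were mixed, and their sum was lowest in curcumin 1 (51.5 CPM) and highest in control 1 (94.9 CPM). In diabetes 1, Lyve1, Prox1, Flt4 and Mmrn1 were at 0. Flt4 (8.16 CPM) and Mmrn1 (6.51 CPM) were highest in curcumin 1, while Lyve1, Prox1, Pdpn and Reln were each highest in another library. The part of these cells in the Ccl21a values was not tested. Ccl19, the other Ccr7 ligand, had 14 to 51 counts in every library but diabetes 1, where it had 0.

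Ccl27a (ENSMUSG00000073888), an epithelial ligand of Ccr10, was at 12.7 CPM in control 1, 13.8 CPM in diabetes 1, 93 counts (3.66 CPM) in diabetes 2, 20.7 CPM in curcumin 1 and 28.4 CPM in curcumin 2. Both curcumin-treated libraries lay above the rest. Its exons overlap Il11ra1 on the opposite strand. The strand setting of the counting is not given in the sources used here, so reads of the pair cannot be told apart. Il11ra1 also had its most counts in the curcumin-treated libraries, with 4018 in curcumin 1 and 3788 in curcumin 2. It had 1193 in control 1, 851 in diabetes 1 and 1955 in diabetes 2. Ccl25, a ligand of Ccr9, was at 13.5 CPM in control 1, 6.52 CPM in diabetes 1, 4.61 CPM in diabetes 2, 5.97 CPM in curcumin 1 and 9.05 CPM in curcumin 2, highest in the control, and it overlaps Elavl1 in the same way. Ccl27b and Ccl28 had at most 29 counts, and Ccl20 had 1 in all.

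Neutrophil ligands were low outside diabetes 2. Cxcl1 (ENSMUSG00000029380) had 3 counts in control 1, 0 in diabetes 1, 5.99 CPM in diabetes 2, 23 counts (0.827 CPM) in curcumin 1 and 26 counts (0.613 CPM) in curcumin 2. Cxcl2 (ENSMUSG00000058427) had 0 counts in control 1 and in diabetes 1, 5.56 CPM in diabetes 2, 3 counts in curcumin 1 and 9 counts in curcumin 2. Both were thus highest in diabetes 2 and absent from the counts of diabetes 1. Cxcl15 had 29 counts in control 1, 20 in curcumin 2 and 0 in the rest, and Cxcl3 had 2 in all. Their receptors Cxcr1 and Cxcr2 had at most 5 counts in any library. Neutrophil markers (6 genes) summed to 29.7 CPM in diabetes 2 and 0.432 to 5.93 CPM elsewhere. Most of the sum in diabetes 2 was S100a8 (22.1 CPM), with S100a9 at 22 counts (0.867 CPM) and Ly6g and Retnlg at 0. The part of neutrophils in the Cxcl1 and Cxcl2 values was not tested.

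The upstream sequences of Cxcl1, Cxcl2 and Cxcl10 are shown because they share the NF-kappaB type motif, GGGA and TTCC with any 2 bases between them, which 1.21% of the RefSeq windows hold on either strand. In Cxcl1 and Cxcl2 the capitals cover overlapping matches on both strands. In Cxcl10 the capitals mark, in order, the interferon response type motif, GAAA and GAAA with any 2 bases between them (2.98% of windows), the NF-kappaB type motif and the AP-1 type motif.
Cxcl1, upstream of its start (GRCm38.p6, chr5:90890995-90891244, plus strand): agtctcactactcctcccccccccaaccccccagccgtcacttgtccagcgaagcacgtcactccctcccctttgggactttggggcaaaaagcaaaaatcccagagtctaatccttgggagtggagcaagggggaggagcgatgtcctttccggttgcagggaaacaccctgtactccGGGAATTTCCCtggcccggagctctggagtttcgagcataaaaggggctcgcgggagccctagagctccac
Cxcl2, upstream of its start (GRCm38.p6, chr5:90903649-90903898, plus strand): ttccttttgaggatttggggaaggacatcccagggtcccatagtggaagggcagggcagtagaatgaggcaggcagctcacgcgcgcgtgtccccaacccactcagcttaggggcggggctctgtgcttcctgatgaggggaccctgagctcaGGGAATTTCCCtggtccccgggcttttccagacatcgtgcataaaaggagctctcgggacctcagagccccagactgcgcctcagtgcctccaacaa
Cxcl10, upstream of its start (GRCm38.p6, chr5:92348890-92349139, minus strand): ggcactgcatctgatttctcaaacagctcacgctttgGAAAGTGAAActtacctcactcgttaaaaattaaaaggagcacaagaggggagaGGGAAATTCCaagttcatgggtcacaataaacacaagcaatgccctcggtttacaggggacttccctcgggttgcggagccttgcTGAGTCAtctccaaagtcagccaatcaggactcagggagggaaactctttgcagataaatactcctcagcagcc
The NF-kappaB type letters lie from base -71 to -61 in Cxcl1, from -97 to -87 in Cxcl2 and from -159 to -150 in Cxcl10. Windows of Ccl1, Ccr3 and Cxcl3 also hold them, 6 of 45 genes in all. Cxcl10 did not share the pattern of the other pair in level, as shown next.

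Interferon-induced ligands of Cxcr3 were uneven. Cxcl9 (ENSMUSG00000029417) had 6 counts (0.222 CPM) in control 1, 23 (0.904 CPM) in diabetes 1, 25.8 CPM in diabetes 2, 5.46 CPM in curcumin 1 and 52 counts (1.23 CPM) in curcumin 2. Cxcl10 (ENSMUSG00000034855) was at 38 counts (1.41 CPM) in control 1, 91 (3.58 CPM) in diabetes 1, 85 (3.35 CPM) in diabetes 2, 5.32 CPM in curcumin 1 and 3.58 CPM in curcumin 2. Diabetes 2 was 28.5 times diabetes 1 for Cxcl9 and 0.937 times for Cxcl10. Cxcl10 had the smaller spread, with all 4 libraries from streptozotocin-treated animals above the control. Its exons overlap Art3 on the opposite strand, which held 3725 counts in diabetes 2, 5776 in curcumin 1 and 218 to 385 elsewhere. Reads of this pair cannot be told apart either. Cxcl11 had 23 counts in diabetes 2, 3 in curcumin 1 and 0 elsewhere. The receptor Cxcr3, found on activated T and natural killer cells, was at 0.777 CPM (21 counts) in control 1, 0.550 CPM (14 counts) in diabetes 1, 3.78 CPM (96 counts) in diabetes 2, 2.70 CPM (75 counts) in curcumin 1 and 1.11 CPM (47 counts) in curcumin 2.

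Of the remaining ligands, Cx3cl1 (ENSMUSG00000031778), or fractalkine, a membrane-bound ligand of epithelium and endothelium, was lowest in diabetes 2, where the summed inflammatory CC ligands were highest. It was at 60.1 CPM in control 1, 66.9 CPM in diabetes 1, 43 counts (1.69 CPM) in diabetes 2, 45.0 CPM in curcumin 1 and 48.9 CPM in curcumin 2. Diabetes 1 was 39.5 times diabetes 2, and the 4 libraries other than diabetes 2 lay close together. Its receptor Cx3cr1 (ENSMUSG00000052336) was at 18.7 CPM in control 1, 9.82 CPM in diabetes 1, 51 counts (2.01 CPM) in diabetes 2, 6.00 CPM in curcumin 1 and 18.5 CPM in curcumin 2. Ligand and receptor were both lowest in diabetes 2, the library with the fewest epididymal and the most macrophage counts. In curcumin 1, Cx3cl1 kept 45.0 CPM, although each epididymal marker but Crisp1 was at most 19.6 CPM there. The part of the epididymis in these values was not tested. The sequence before the Cx3cl1 start is given for contrast with those above, since none of the 3 motifs occurs in it.
Cx3cl1, upstream of its start (GRCm38.p6, chr8:94771930-94772179, plus strand): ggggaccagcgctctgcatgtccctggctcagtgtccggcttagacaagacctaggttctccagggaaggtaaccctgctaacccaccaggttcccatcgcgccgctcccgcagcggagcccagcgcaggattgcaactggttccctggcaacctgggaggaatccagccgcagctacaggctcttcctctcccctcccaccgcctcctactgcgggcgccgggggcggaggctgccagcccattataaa
No match says only that these letters are not in the window, and each of the motifs is in at most 6.75% of all windows.

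Cxcl12 (ENSMUSG00000061353), the stromal ligand of Cxcr4, was abundant in every library, at 49.0 CPM in control 1, 25.2 CPM in diabetes 1, 116 CPM in diabetes 2, 118 CPM in curcumin 1 and 54.8 CPM in curcumin 2. Cxcl16 (ENSMUSG00000018920), a scavenger of oxidised lipid and ligand of Cxcr6, ran from 10.1 CPM in control 1 and 11.6 CPM in diabetes 1 to 14.1 CPM in curcumin 2, 20.5 CPM in diabetes 2 and 27.4 CPM in curcumin 1. Cxcl16 was highest in curcumin 1. Its exons overlap Zmynd15 on the opposite strand, which held from 85 counts in diabetes 1 to 202 in curcumin 1. Reads of Cxcl16 and Zmynd15 cannot be told apart. The order of the top 2 libraries for Cxcl12 turned with TMM scaling (128 CPM in diabetes 2 and 112 CPM in curcumin 1). Cxcl14 (ENSMUSG00000021508), an epithelial and fat-derived chemokine, was at 37.96 CPM in control 1, 12.8 CPM in diabetes 1, 13.7 CPM in diabetes 2, 34.8 CPM in curcumin 1 and 24.0 CPM in curcumin 2. Its diabetic libraries stood close together, both under every other library. Cxcl13 had 0 counts in diabetes 1 and 24 to 42 elsewhere, Cxcl17 had 25 in diabetes 1 and at most 2 elsewhere, and Xcl1 had at most 15.

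The receptors Ccr1, Ccr2 and Cxcr4 were highest in diabetes 2 and next in curcumin 1, as Ptprc was, while Cx3cr1, also a receptor of monocytes and macrophages, was lowest in these 2 libraries (above). Ccr2 (ENSMUSG00000049103), the Ccl2 receptor, was at 33 counts (1.22 CPM) in control 1, 67 (2.63 CPM) in diabetes 1, 64.1 CPM in diabetes 2, 14.6 CPM in curcumin 1 and 8.72 CPM in curcumin 2. Control 1 was lowest and diabetes 2 highest. Cxcr4 (ENSMUSG00000045382), the receptor of Cxcl12, was at 34 counts (1.26 CPM) in control 1, 25 (0.982 CPM) in diabetes 1, 26.6 CPM in diabetes 2, 5.25 CPM in curcumin 1 and 67 counts (1.58 CPM) in curcumin 2. Ccr1, the receptor of Ccl6 and Ccl9, was at 26 counts (0.962 CPM) in control 1, 0 in diabetes 1, 8.08 CPM in diabetes 2, 34 counts (1.22 CPM) in curcumin 1 and 15 counts (0.354 CPM) in curcumin 2.

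Set against Ptprc in the same library, Cxcr4 spread less than by CPM. The ratio of Cxcr4 CPM to Ptprc CPM lay between 0.151 in diabetes 1 and 0.306 in control 1. The ratio of Ccr2 was 0.297 in control 1, 0.404 and then 0.564 in diabetes 1 and diabetes 2, and 0.805 and then 1.42 in curcumin 1 and curcumin 2. Here the curcumin-treated libraries lay above the diabetic ones, unlike the CPM itself. Wider ratios were found for the receptor Cx3cr1, from 0.0177 in diabetes 2 to 4.56 in control 1, and among the ligands, with Ccl6 from 0.0964 in diabetes 1 to 3.02 in diabetes 2, and Ccl9 from 0.631 in control 1 to 3.29 in diabetes 2. For Ccl8 the ratio was 0.642 and 0.923 in the curcumin-treated libraries, 0.121 in diabetes 2 and 0.0901 in control 1. These ratios are descriptions with no test, and serve to compare libraries, not genes.

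**Figure D3:**
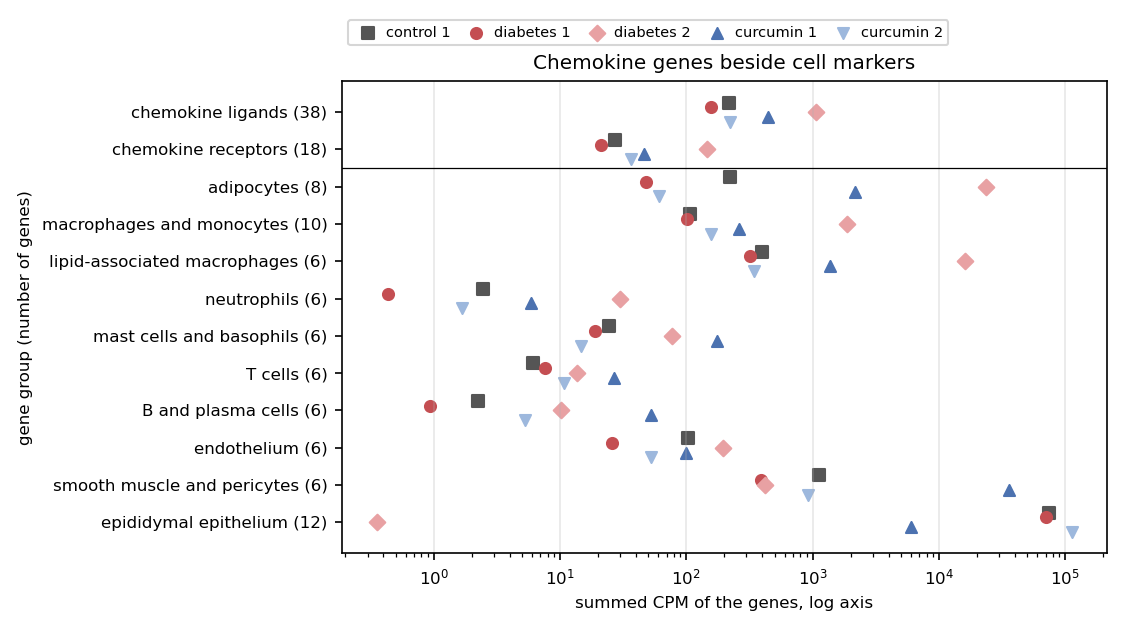
Summed CPM (log axis) of the 38 chemokine ligands and the 18 signalling receptors, above the line, and of cell marker lists, below it, in each library. Macrophage and monocyte markers stand at 1865 CPM in diabetes 2, 262 CPM in curcumin 1, 156 CPM in curcumin 2, 107 CPM in control 1 and 102 CPM in diabetes 1, the same order as the receptors. In the lipid-associated macrophage sum, Lpl alone makes 14802 of 16130 CPM in diabetes 2 and 1147 of 1383 CPM in curcumin 1. Trem2, Spp1, Gpnmb and Itgax are also highest in diabetes 2, while Cd9 is lower there (110 CPM) than in control 1 (226 CPM).

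Lymphocyte receptors were scarce. Ccr7, the receptor of Ccl19 and Ccl21, was at 12 counts (0.444 CPM) in control 1, 13 (0.511 CPM) in diabetes 1, 91 (3.59 CPM) in diabetes 2, 93 (3.34 CPM) in curcumin 1 and 48 (1.13 CPM) in curcumin 2. Cxcr6 ran from 0.424 CPM (18 counts) in curcumin 2 to 2.44 CPM (62 counts) in diabetes 2, and Ccr10 from 0.660 CPM (28 counts) in curcumin 2 to 1.93 CPM (49 counts) in diabetes 1. Cxcr5, the B cell receptor of Cxcl13, had 0 counts in control 1, 7 and then 15 in diabetes 1 and diabetes 2, and 34 and then 14 in curcumin 1 and curcumin 2. Its exons overlap Bcl9l on the opposite strand, which held 1490 to 3630 counts. Xcr1, a receptor of cross-presenting dendritic cells, had 7 counts in control 1, none in diabetes 1, 13 in diabetes 2, 40 in curcumin 1 and 44 in curcumin 2. Ccr4, Ccr6 and Ccr8 had at most 9 counts, and Ccr9 at most 39.

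The atypical receptors split. Ackr3 (ENSMUSG00000044337), which removes Cxcl12, was at 16.4 CPM in control 1, 11.6 CPM in diabetes 1, 33.8 CPM in diabetes 2, 17.3 CPM in curcumin 1 and 8.34 CPM in curcumin 2. Ackr4 (ENSMUSG00000079355), which removes Ccl19, Ccl21 and Ccl25, was at 18.5 CPM in control 1, 21.3 CPM in diabetes 1, 49 counts (1.93 CPM) in diabetes 2, 71 counts (2.55 CPM) in curcumin 1 and 10.04 CPM in curcumin 2. Ackr3 was highest where Ackr4 was lowest. Ackr4 shares exon sequence with Acad11 on the opposite strand, which held 472 to 2923 counts. Ackr1, a venular and erythroid receptor, had 74 counts (2.74 CPM) in control 1, 0 in diabetes 1, 4.65 CPM in diabetes 2, 44 (1.58 CPM) in curcumin 1 and 46 (1.08 CPM) in curcumin 2. Its exons overlap Cadm3 on the same strand, which held 0 counts in diabetes 1 and 46 to 203 elsewhere, most in diabetes 2, so reads of this pair cannot be told apart. Ackr2, the scavenger of inflammatory CC ligands, was at 5.83 CPM in diabetes 2, 20 counts (0.719 CPM) in curcumin 1, 6 counts in control 1, 4 in curcumin 2 and 0 in diabetes 1.

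Across the 34 genes with a mean of at least 1 CPM, diabetes 2 and curcumin 1 were the highest 2 libraries for 22 and the lowest 2 for 4 (Ackr4, Ccl25, Cx3cl1 and Cx3cr1). Over all genes with such a mean the shares were 23.8% and 21.7%. These are the 2 libraries with the most adipocyte and macrophage and the fewest summed epididymal counts, and they come from different groups. The epididymal marker Crisp1 went the other way in curcumin 1, where it was highest.

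The first comparison asked how curcumin-treated and untreated diabetic libraries differ in chemokine expression. No gene of the family was called, against a background of 0% of the 29855 genes tested, by edgeR's quasi-likelihood test with Benjamini-Hochberg adjustment over all genes. The family's smallest adjusted p was 0.852, and 0 of its 50 tested genes had an unadjusted p under 0.05. DESeq2 and limma-voom also called 0 of the 50, here and in the other 2 comparisons. Cxcl14 had the smallest p, with 29.4 ± 7.63 CPM in curcumin-treated and 13.2 ± 0.611 CPM in diabetic libraries (SD, n = 2 each; log2 fold change 1.12, SE 0.47; edgeR adjusted p = 0.852). Ccl12 stood at 1.57 ± 0.220 CPM against 0.334 ± 0.0271 CPM (log2 fold change 2.21, SE 1.09). Ccl27a stood at 24.6 ± 5.44 CPM against 8.71 ± 7.13 CPM (1.56, SE 0.76), and its reads cannot be told apart from those of Il11ra1 (above). Control 1 lay above both treated libraries for Cxcl14 (37.96 CPM) and below them for Ccl12 (0.555 CPM) and Ccl27a (12.7 CPM). These 3 genes, Cxcl10 and Xcr1 were the 5 of 50 (10%) whose curcumin-treated libraries both lay above both diabetic ones, where 17.9% of all tested genes did so. None of the 50 had both below, against 9.72% of all tested genes.

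The sequence before the Cxcl14 start is shown because this gene had the smallest p, with its interferon response type match in capitals (base -172 to -163).
Cxcl14, upstream of its start (GRCm38.p6, chr13:56296552-56296801, minus strand): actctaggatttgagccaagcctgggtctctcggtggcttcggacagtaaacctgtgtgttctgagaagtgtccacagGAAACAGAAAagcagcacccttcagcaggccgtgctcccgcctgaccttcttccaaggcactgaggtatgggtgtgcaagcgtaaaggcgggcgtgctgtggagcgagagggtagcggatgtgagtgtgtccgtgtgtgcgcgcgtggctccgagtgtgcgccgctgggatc
On the lower side stood the genes that diabetes 2 led. Ccl9 was at 17.6 ± 17.4 CPM with curcumin against 189 ± 261 CPM without (log2 fold change −3.60, SE 1.94), Ccl6 at 13.99 ± 16.0 against 172 ± 242 CPM (−3.81, SE 2.46) and Cxcl2 at 0.160 ± 0.0737 against 2.78 ± 3.93 CPM (−4.13, SE 2.31). Ccr3, at 0 in both curcumin-treated libraries, was at least 7.503-fold lower on the mean of the diabetic libraries against a floor of 3 counts per library. Ccl21a was higher with curcumin, at 31.1 ± 35.8 against 5.42 ± 6.55 CPM (2.34, SE 1.53). In each of these genes the SD was close to or above the mean in at least 1 group. Without diabetes 2 the log2 fold change turned to 1.90 for Ccl9 and to 4.47 for Ccl6, and Cxcl2 and Ccr3 fell under the low-count filter. Without curcumin 1 that of Ccl21a was 0.12, and without diabetes 2 it was 5.30.

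Over the 50 tested genes the median log2 fold change was −0.54, with 21 positive and 29 negative, beside a median of 0.05 over all tested genes. By role, 7 of 7 CC receptors were negative (median −1.93), as were 4 of 4 atypical receptors (median −0.92), while 6 of 7 homeostatic ligands were positive (median 0.96). None of these passed the test, and genes that passed the filter through a single library had to differ between groups. Without diabetes 2, 39 of 47 tested genes were positive (median 1.83), and without diabetes 1, 33 of 48 were negative (median −0.74). The median was also positive with limma-voom (0.47) and with the replicate number as a block (0.27).

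The second comparison set diabetes against the single control and asked what the model changes. No gene of the family was called by edgeR (adjusted p of 1 for each), beside 0% of all genes, with 1 of 50 at an unadjusted p under 0.05, Ccl24. The mean of the diabetic libraries for Ccl24 was 2.26 ± 2.20 CPM (SD, n = 2), at least 20.4-fold above the floor of control 1. Cxcl14 was lower in both diabetic libraries, 13.2 ± 0.611 CPM against 37.96 CPM (log2 fold change −1.37, SE 0.55). Its value ran from −1.53 to −1.23 over the fits without 1 replicated library, all of which kept control 1. Ccr2 was at 33.4 ± 43.4 CPM against 1.22 CPM (5.01, SE 2.19), Ccl7 at 5.85 ± 6.44 against 0.148 CPM (5.49, SE 2.43), Cxcl9 at 13.3 ± 17.6 against 0.222 CPM (6.12, SE 2.73) and Ccl9 at 189 ± 261 against 2.59 CPM (6.43, SE 3.07). For these genes both diabetic libraries lay above the control, but by very unequal amounts. Leaving out diabetes 2 gave 1.15 for Ccr2, 3.13 for Ccl7, 2.04 for Cxcl9 and 0.92 for Ccl9. Cxcr5 was at least 3.901-fold and Cxcl2 at least 25.0-fold above the floor of the control, the latter from diabetes 2 alone.

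Of the 50 tested genes, 38 had a positive and 12 a negative log2 fold change (median 1.72, beside 0.07 over all tested genes). Both diabetic libraries lay above the control for 14 (28%) and below it for 8 (16%), where 17.3% and 34.5% of all tested genes did. Monocyte and inflammatory CC ligands were positive for 8 of 9 (median 5.37) and CC receptors for 7 of 7 (median 3.09). Ccl4 and Ccr3, at 0 in control 1, could not be negative. Without diabetes 2, Ccl2, Ccl3, Ccl6, Ccl8 and Ccr1 turned negative. Ccl4 was then at 0, Ccr3 had no value, and Ccl12 stayed negative. Ccl5, Ccl7, Ccl9, Ccr2, Ccr7, Ccr9 and Ccr10 stayed positive. Leaving out diabetes 2 gave 21 positive and 25 negative of 47 (median −0.45), and the median was 0.83 with limma-voom and 1.09 with the replicate block. Macrophage and monocyte markers had positive values for all 10 (median 3.27, 0 called by edgeR), with a sum of 1865 CPM for diabetes 2, 102 CPM for diabetes 1 and 107 CPM for control 1. Adipocyte markers were positive for 8 of 8 (median 5.83, 0 called). Leaving out diabetes 2 turned both medians, to −0.16 for macrophages and monocytes and to −2.07 for adipocytes. The part of these cells in the chemokine values was not tested.

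The third comparison, curcumin-treated against control, shares its libraries with the first 2 and is given by its own values. Again edgeR called none of the family (adjusted p of 1 for each) and 0% of all genes, with 0 of 50 at an unadjusted p under 0.05. Ccl24 and Cxcr5, at 0 in control 1, were at least 11.1-fold and 6.99-fold above its floor on the mean of the curcumin-treated libraries, and Ccl4 at least 8.26-fold. Ccr2 was at 11.6 ± 4.13 CPM (SD, n = 2) against 1.22 CPM (log2 fold change 3.36, SE 2.00), Cxcl10 at 4.45 ± 1.23 against 1.41 CPM (1.78, SE 1.10) and Ccl5 at 9.03 ± 6.10 against 2.37 CPM (2.02, SE 1.34). Ccl7 (4.44, SE 2.32) and Cxcl9 (3.96, SE 2.46) completed the genes of smallest p. Reads of Cxcl10 cannot be told apart from those of Art3 (above). Without either treated library in turn, Ccr2 was at 3.07 and 3.58 and Cxcl10 at 1.58 and 1.93, while Ccl7 went from 2.64 to 5.19 and Cxcl9 from 2.68 to 4.605. Ccl5 was at 1.23 without curcumin 1. Both curcumin-treated libraries lay above the control for 26 genes (52%) and below it for 10 (20%), where 24.6% and 34.0% of all tested genes did. All 9 monocyte and inflammatory CC ligands were positive (median 2.83), none past the test. Ccl4 among them, at 0 in control 1, could not be negative. Without curcumin 1, Ccl6 turned to −0.32 and the other ligands of this role stayed positive. The median over the 50 tested genes then went from 1.51 to 0.48.

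**Figure D4:**
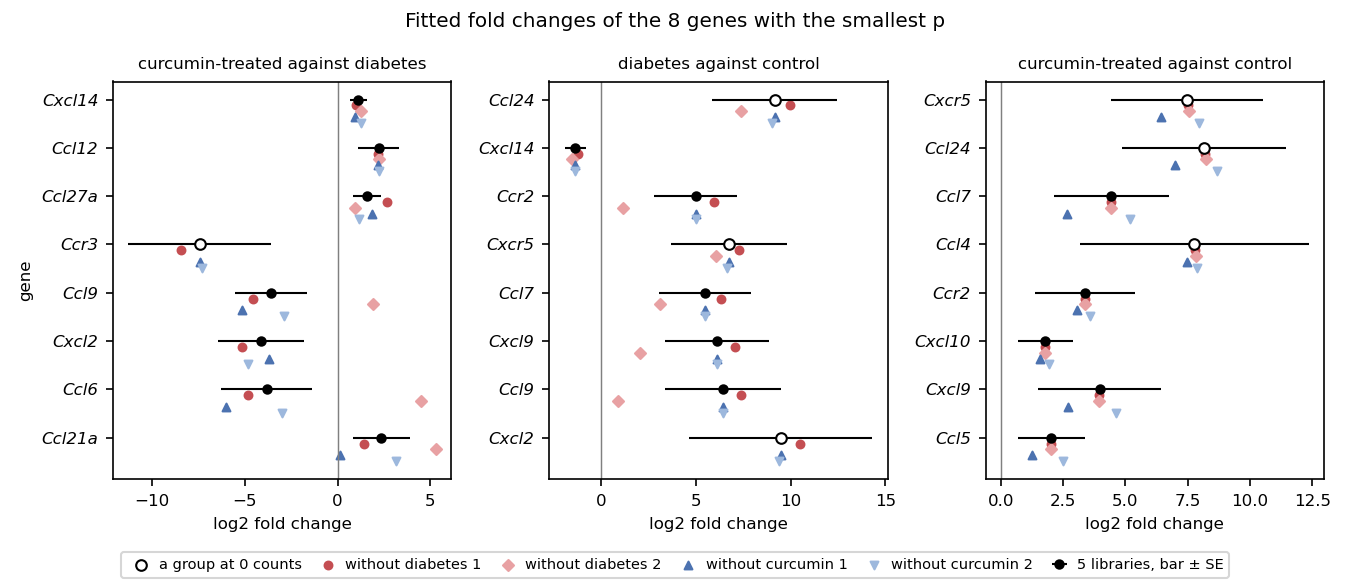
Log2 fold change (x axis) of the 8 chemokine or receptor genes (y axis) with the smallest p in each comparison. Black points are fits of all 5 libraries with their SE, open where a whole group had 0 counts so that the value depends on the prior count, and coloured symbols are fits without 1 library; Ccl6 and Ccl9 cross 0 without diabetes 2, while Cxcl14 stays between 0.95 and 1.28 with curcumin.

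Other genes of the pathway were given by lists. Of 35 genes for signalling below the receptors (G proteins, arrestins, Dock2 and others), 0 were called in any comparison by edgeR. With curcumin 25 of 35 were negative (median −0.41), with values for Dock8, a guanine nucleotide exchange factor of migrating leukocytes, at −3.81 (SE 1.85) and the receptor kinase Grk5 at −0.94 (SE 0.47). Of 14 tested genes for adhesion and homing, 0 were called and 12 were negative (median −0.96), with the leukocyte integrin Itgb2 at −3.49 (SE 1.84) and Ptprc at −2.46 (SE 1.37). Among 14 tested inducers and regulators of chemokine genes, 0 were called and 10 were negative (median −0.55), with the endotoxin receptor Tlr4 at −2.81 (SE 1.46) and the interferon regulator Irf1 at 0.90 (SE 0.53). Diabetes 2 carried 4 of these 6 values: leaving it out turned Dock8 to 1.60, Itgb2 to 2.03, Ptprc to 0.93 and Tlr4 to 0.82, while Grk5 (−0.80) and Irf1 (1.32) kept their sign. It also turned the medians of the lists, to 0.89, 1.72 and 1.28. In diabetes against control the same lists had 29 of 35, 13 of 14 and 11 of 14 positive values and 0 calls, and without diabetes 2 their positive values were 11 of 35, 2 of 14 and 2 of 13.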

How the data were processed

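The authors deposited whole-number counts per Ensembl gene in a single table, not normalised. Per the labels' protocols, libraries were poly-A selected, strand-marking and paired-end, and FastQC, featureCounts and the build GRCm39 are named, per the submitters' processing notes. The aligner, annotation release and strand setting were not given in the sources used here. Symbols were matched by gene ID for 51486 of 78334 genes (65.7%). Levels are CPM by library total. Tests used edgeR 4.0.16 (R 4.3.3): filterByExpr (29855 genes), TMM scaling, robust quasi-likelihood fit with a prior count of 0.125, all 5 libraries in 1 model with 2 residual degrees of freedom, two-sided, Benjamini-Hochberg adjustment, threshold 0.05. The lone control is taken to vary as the replicated groups do. The fit's biological coefficient of variation was 1.07. An SE is the log2 fold change divided by the root of F. The fit was tested on simulated data.

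Levels are named for genes with a mean of at least 1 CPM, and fold changes for the 8 genes of smallest p per comparison; others, such as Ccl12 and Cxcr5, are named by their counts. The values of 1 gene of the family are not reported here. Genes and lists were chosen with earlier results of these data known. Alternatives were DESeq2 1.42.0, limma-voom (limma 3.58.1), other scalings and filters, no robust moderation, a replicate block and leaving out each replicated library. Promoter windows are from RefSeq (GRCm38.p6), cut to the 250 bases before the start and matched by symbol for 45 of 60 genes; genes with no window used include Ccl11, Ccl2, Ccl24, Ccl26, Ccl4, Ccl5, Ccl7, Ccr10, Ccr7, Cxcl11, Cxcl16, Cxcl17, Cxcl5 and Cxcr5. Transcript lengths and exon overlaps are from GENCODE M21 (GRCm38). Intervals and limits for 0 counts cover counting error only.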

Additional observations from a re-analysis of the deposited data

How the results depend on the processing

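With DESeq2 95 genes were called for curcumin-treated against diabetes, 58 for diabetes against control and 77 for curcumin-treated against control, none of them a chemokine or receptor gene; all other alternatives called 0 genes and 0 of the family in each comparison, also without each replicated library. At an unadjusted p under 0.05, edgeR had 696, 440 and 112 genes over the 3 comparisons. Of 24 named fold changes, the sign turned for 2, in curcumin-treated against diabetes without diabetes 2. There Ccl6 ran from −6.02 to 4.47 and Ccl9 from −5.17 to 1.90 over the fits without 1 library. The lowest adjusted p of any named gene under any alternative was 0.472. Cxcl2 and Ccr3 had no value without diabetes 2, and 5 named values had none under the stricter filter (at least 1 CPM in at least 2 libraries). With the replicate number as a replicate block, 0 genes were called in each comparison and no sign of a named gene turned. Same-numbered libraries did not deviate together (correlation −0.41 across 29855 genes), and crossed numbers, a pairing chosen after seeing the data, also gave 0 calls. With the TMM factor the summed CPM of the family in control 1 was 261.3 instead of 282.6. TMM scaling left the median of all genes at 0.17 (log2) for curcumin-treated against control, and library totals at 0.03. Depth limits the genes at few counts, for which 0 allows up to 3.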

Other observations

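Chemokine genes sit in runs of neighbours, and neighbours did not always share their highest library. In the RefSeq gene order, Ccl2, Ccl7, Ccl11, Ccl12, Ccl8 and Ccl1 follow each other with no other protein-coding gene between them. Ccl2, Ccl7, Ccl11 and Ccl8 were highest in diabetes 2, at 23.5, 10.4, 56.2 and 13.8 CPM, while Ccl12, between Ccl11 and Ccl8, was at 0.315 CPM (8 counts) there, close to its 0.354 CPM (9 counts) in diabetes 1, and at 1.73 CPM in curcumin 1. With TMM scaling the order of the diabetic libraries turned (0.337 CPM in diabetes 1 and 0.346 CPM in diabetes 2). Ccl22, Cx3cl1 and Ccl17 are neighbours too. Ccl22 was highest in diabetes 2 at 3.98 CPM, and Cx3cl1, next to it, was lowest there at 1.69 CPM.

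Mast cells and basophils, which carry receptors for several of these ligands, were marked most in curcumin 1. Apart from Kit, a split chosen after the values were seen, 5 of their 6 markers (Cpa3, Mcpt4, Tpsb2, Fcer1a and Cma1) summed to 4285 counts (154 CPM) there, 1705 counts (67.2 CPM) in diabetes 2, 21 counts in curcumin 2, 5 counts in control 1 and 0 in diabetes 1. Kit, which other cells also carry, ran differently, from 9.61 CPM in diabetes 2 to 24.1 CPM in control 1.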
